A study of Oryctolagus cuniculus with 12 samples.

Results

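Glycolysis and hypoxia response genes were followed in rabbit conjunctiva after glaucoma filtration surgery. A list of 33 genes was taken, which held glucose transporters, the enzymes from hexokinase to lactate dehydrogenase, a lactate exporter, regulators of glycolysis, oxygen sensing genes, and known targets of hypoxia. Of these 33 genes, 31 had a row under their own symbol among the 20566 genes of the table, and all 31 were among the 14835 genes with enough counts to be tested. The genes SLC2A3 and PFKL had no row under these symbols, and rows that carry their descriptions are given apart and are not counted among the 31. CA9 passed the filter on low counts only through the groups where it was higher.

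The 12 libraries came from female Japanese white rabbits, which the study's methods give as 12 to 14 weeks old. The right eye underwent trabeculectomy (TL), an operation that lets aqueous humor leave the eye under a flap of sclera and collect below the conjunctiva as a bleb, and the bleb conjunctiva was taken after 3 hours (TL3h), 3 days (TL3d), or 14 days (TL14d), with 3 libraries each. All operated eyes also received mitomycin C, a DNA crosslinking drug that limits scarring, on sponges, and the glucocorticoid betamethasone by injection, so that surgery and drugs cannot be told apart. The 3 control libraries came from left conjunctiva without surgery, and the animals and times they belong to were not stated, so no left eye was paired with a right eye. Each operated group was of 3 eyes, and since only right eyes were operated these were 3 animals. The p-values measure the spread between these libraries.

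Glycolysis splits glucose into pyruvate in the cytosol and yields ATP without oxygen. Lactate dehydrogenase turns pyruvate into lactate, which leaves the cell through monocarboxylate transporters, and pyruvate dehydrogenase kinases restrain the entry of pyruvate into mitochondria. When oxygen is short, prolyl hydroxylases of the EGLN family stop marking HIF-1α for destruction, and the stabilized factor turns on glucose transporters, glycolytic enzymes, and genes such as ADM and CA9. Inflammatory signals can raise many of the same genes when oxygen is not short, and activated neutrophils and macrophages rely strongly on glycolysis. The transcript level of a gene does not measure the flow of glucose or the oxygen in a tissue, and neither was measured in these libraries.

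Total counts per library ranged from 27111348 to 38591425. Levels are given as CPM, the counts per 1000000 of the library total after scaling by TMM, a method that sets the scale by the bulk of genes. TMM gave factors of 0.768 to 0.783 at 3 hours, whereas the other groups had 1.03 to 1.13. The tissue label was checked against markers fixed for the conjunctival epithelium. KRT13, KRT4, and PAX6 were present in all 12 libraries, and the summed level of the 10 epithelial markers was 7357 to 15683 CPM in controls. This sum was 6638 to 11834 CPM in TL3h, 10357 to 27498 CPM in TL3d, and 14936 to 19379 CPM in TL14d. Some libraries stood apart from their groups. TL14d replicate 1 correlated more with the controls (mean r = 0.969 over genes) than with the other TL14d libraries (mean r = 0.914). Skeletal muscle markers summed to 679 CPM in control replicate 2 and 563 CPM in TL3d replicate 3, against 1.40 to 57.1 CPM in the other libraries. The summed neutrophil markers were 5.15 to 114 CPM in controls, 1498 to 3814 CPM in TL3h, 316 to 1025 CPM in TL3d, and 4.30 to 2149 CPM in TL14d. MMP9 alone gave 1992 of the 2149 CPM of TL14d replicate 2, and the neutrophil marker MMP8 was at 0 in all control and TL3h libraries. The summed macrophage markers were 82.6 to 644 CPM in controls, 684 to 1044 CPM in TL3h, 1417 to 2306 CPM in TL3d, and 103 to 573 CPM in TL14d. The summed fibroblast markers were 12255 to 76766 CPM in controls, 105385 to 126322 CPM in TL3h, 1352 to 64789 CPM in TL3d, and 11035 to 57142 CPM in TL14d. Collagen genes made up most of the TL3h sums. PDGFRA (132 to 243 CPM in TL3h, 66.6 to 310 CPM in controls) and THY1 (329 to 770 and 93.7 to 480 CPM) overlapped the controls. By the test described below, 0 of the 7 fibroblast markers were called at 3 hours. The summed markers of endothelium (69.5 to 303 CPM in controls, 638 to 1261 CPM in TL3h), Schwann cells (44.1 to 138 and 157 to 207 CPM), and red blood cells (0.0712 to 5.84 and 11.9 to 102 CPM) were also higher in all TL3h libraries than in all controls. Single genes made up most of these sums. In TL3h PECAM1 measured 717, 972, and 459 CPM, PMP22 121, 174, and 115 CPM, and ALAS2 11.5, 99.2, and 12.6 CPM. By the test described below, 2 of 7 endothelial and 1 of 7 Schwann cell markers rose at 3 hours, beside 23.2% of all tested genes. Only 1 red blood cell marker had enough counts to be tested. Control replicate 3 held the highest sum of neutrophil, macrophage, and fibroblast markers among the controls. In bulk tissue, fewer cells of a type and less RNA per cell cannot be told apart. The part of these cell types in the results below was not tested.

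At 3 hours, most of the glycolytic chain from hexokinase 2 to the lactate exporter was higher than in control conjunctiva. In TL3h against control, 16 of the 31 genes rose and 3 fell in edgeR's quasi-likelihood test with Benjamini-Hochberg adjustment over all 14835 genes (q, adjusted p of at most 0.05). Over all tested genes, 23.2% rose and 22.2% fell, which is 45.4% called. The median log2 fold change was 1.14 over the 31 genes and 0.02 over all genes. The 16 genes that rose were HK2, HK3, PFKP, PFKFB3, ALDOA, TPI1, GAPDH, PGK1, PGAM1, ENO2, PKM, LDHA, SLC16A3, HIF1A, ADM, and NDRG1, and the 3 that fell were GPI, PFKM, and PDK1. All TL3h libraries lay above all controls for 17 of the 31 genes, against 28.9% of all tested genes, and below them for 5, against 28.3%. With scaling by library size only, the median of all genes moved to -0.47, and 25.0% of the called genes were higher in place of 51.0% with TMM. Under that scaling 13 of the 31 genes were called higher and 7 lower, beside 12.7% and 38.2% of all tested genes. The calls of EGLN1, CA9, BNIP3, and ANKRD37 were added to those lower, the calls of TPI1, GAPDH, and LDHA were lost, and TPI1 changed sign from 0.46 to -0.04. Calls at 3 hours are therefore relative to the bulk of the genes.

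At 3 days, 11 of the 31 genes rose against control and 1 fell, with a median log2 fold change of 0.61 over the 31 and 0.00 over all genes. Of all tested genes, 10.6% rose and 7.0% fell, which is 17.6% called. SLC2A1, HK3, TPI1, GAPDH, PGK1, PGAM1, ENO1, PKM, LDHA, SLC16A3, and HIF1A rose, and PFKM fell. The 3 TL3d libraries lay above all controls for 12 genes (23.8% of all tested genes) and below them for 3 (21.7%). These calls depended on single libraries. Without control replicate 1, control replicate 2, TL3d replicate 1, or TL3d replicate 2, only PGAM1 and SLC16A3 stayed past the threshold, and 359 to 491 genes in place of 2608 were called in all. The other 10 genes then had q from 0.0554 to 0.102, from 0.0542 to 0.134, from 0.0512 to 0.162, and from 0.0505 to 0.130, in that order. The log2 fold changes of these 10 ranged over all alternatives from 1.58 to 1.72 for PGK1, from 1.45 to 1.69 for PKM, from 1.18 to 1.48 for GAPDH, from 0.45 to 0.51 for TPI1, from 1.87 to 2.22 for HIF1A, from 1.29 to 1.89 for LDHA, from 3.95 to 4.67 for HK3, from 1.26 to 2.06 for SLC2A1, from 0.51 to 0.68 for ENO1, and from -0.89 to -0.57 for PFKM. The SLC2A1 call was lost without any 1 of 9 libraries, all but TL3h replicate 2, TL3d replicate 3, and TL14d replicate 1, and also with library size only (q = 0.0558), without a filter on low counts (q = 0.0553), and with only the 2 groups compared (q = 0.0702). HK3 also lost its call without control replicate 3, ENO1 without control, TL3h, or TL3d replicate 3 and with library size only (0.58, q = 0.0512), and PFKM without TL3h replicate 1 or TL14d replicate 3. Without TL14d replicate 1, PDK1 (q = 0.0129) and EGLN1 (q = 0.0115) were called lower and P4HA3 (q = 0.0390) higher. The comparisons at 3 hours and at 3 days used the same control libraries.

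At 14 days, 0 of the 31 genes were called against control, and 0 of all tested genes were called by edgeR's quasi-likelihood test. The share called was 0% in either direction. At an unadjusted p under 0.05 there were 9 of the 31 genes and 1538 of all genes (10.4%), and DESeq2 called 371 genes, of which P4HA3 was the 1 member. The 3 TL14d libraries lay above all controls for SLC2A1 and ENO1, against 6.03% of all tested genes, and below them for none of the 31, against 5.11%. TL14d replicate 1 decided this comparison. Without it, HK3, PGK1, PGAM1, PKM, SLC16A3, HIF1A, and P4HA3 were called higher and PDK1 and EGLN1 lower, beside 3.51% of 15114 genes called higher and 1.22% lower, which is 4.74%. In that fit the log2 fold changes were 3.31 for HK3, 1.11 for PGK1, 0.67 for PGAM1, 1.16 for PKM, 1.37 for SLC16A3, 1.12 for HIF1A, and 4.49 for P4HA3. PDK1 fell by 1.04 and EGLN1 by 0.85 on the log2 scale.

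**Figure D1:**
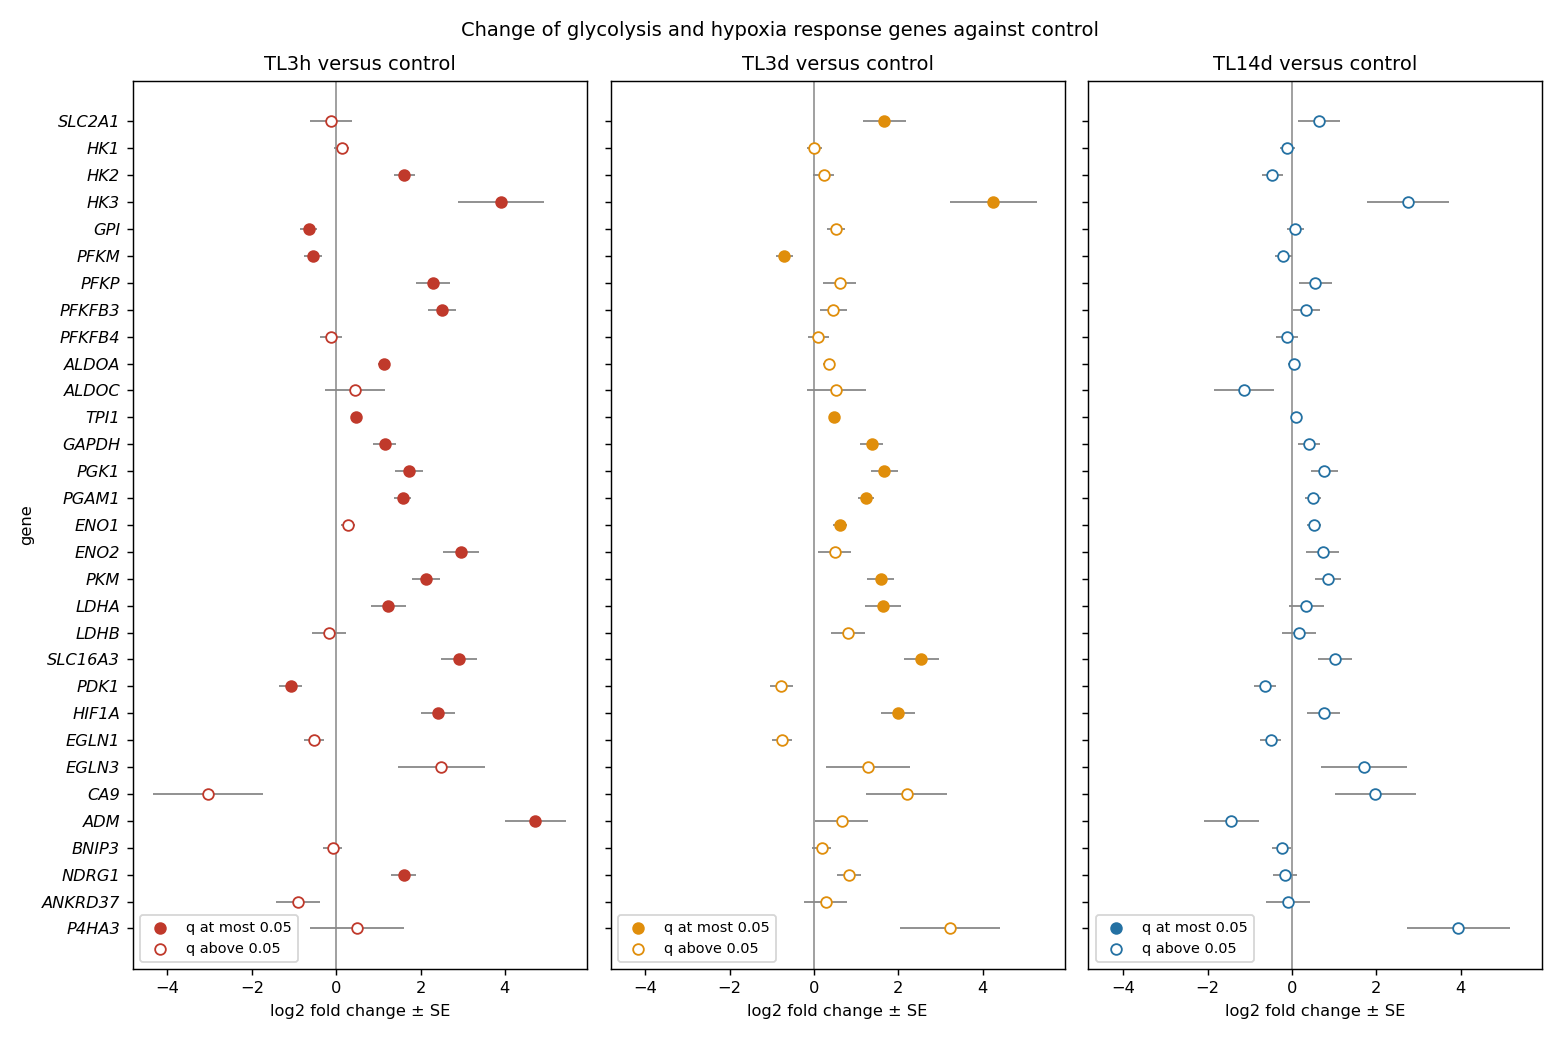
Log2 fold change (horizontal axis, with standard error as bars) of each of the 31 genes (vertical axis, ordered by role) in TL3h, TL3d, and TL14d against control, from 1 edgeR fit of 12 libraries. Filled points have q of at most 0.05, which holds for 19 of the genes in TL3h, 12 in TL3d, and none in TL14d. ADM has the largest value at 3 hours (4.72), and the bars are widest for CA9, HK3, EGLN3, and P4HA3.

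Of the glucose transporters, the SLC2A3 row rose at 3 hours, and SLC2A1 rose at 3 days by a call that depended on single libraries and on settings of the fit. SLC2A1 encodes GLUT1, the transporter for basal glucose uptake in many cells (chr13:123839094-123861318 on OryCun2.0). Its level was 120, 99.7, and 76.5 CPM in the controls, 87.7, 45.7, and 137 CPM in TL3h, 468, 357, and 116 CPM in TL3d, and 137, 202, and 125 CPM in TL14d. TL3d replicates 1 and 2 were the highest of all libraries, whereas TL3d replicate 3 lay within the range of the controls. The summed epithelial markers of TL3d were 27498, 24067, and 10357 CPM in the same order, and their part in SLC2A1 was not tested. The change at 3 days was 1.66 ± 0.51 (log2 fold change ± SE, q = 0.0482), and at 3 hours it was -0.13 ± 0.50 (q = 0.852). The row described as glucose transporter member 3 (LOC100125981, chr8:33662031-33754090) is the high-affinity transporter known from neurons and leukocytes. It measured 4.72, 9.53, and 41.1 CPM in controls, 663, 1263, and 477 CPM in TL3h, 285, 146, and 131 CPM in TL3d, and 5.61, 123, and 29.5 CPM in TL14d. All TL3h and TL3d libraries lay above the controls, and all TL3h libraries lay above TL3d. The row rose at 3 hours by 5.44 ± 1.20 (q = 0.00456). At 3 days the value was 3.35 ± 1.09 (q = 0.0592), and it passed without control replicate 3 (4.70, q = 0.0369), TL14d replicate 1 (q = 0.0248), or TL14d replicate 2 (q = 0.0337). Neutrophil markers were high in the same TL3h libraries, where 10 of 10 tested rose, and their part in this row was not tested.

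Hexokinases trap glucose in the cell by phosphorylation. Of the 3 isoforms, HK2 and HK3 rose at 3 hours, when 23.2% of all tested genes did, and HK3 at 3 days, when 10.6% did. HK2, the isoform known to respond to insulin and hypoxia (chr2:111661470-111721018), measured 129, 83.1, and 121 CPM in controls and 322, 271, and 430 CPM in TL3h. It then measured 160, 136, and 95.6 CPM in TL3d and 68.9, 93.0, and 80.9 CPM in TL14d. All TL3h libraries lay above every library of the other groups, with a rise of 1.62 ± 0.25 (q = 0.000711). HK3, known as a hexokinase of myeloid cells, had far lower levels of 0.427, 1.20, and 0.752 CPM in controls. It measured 14.0, 15.1, and 6.62 CPM in TL3h, 11.2, 16.0, and 18.2 CPM in TL3d, and 0.437, 13.6, and 2.15 CPM in TL14d. The 3 TL14d libraries of HK3 spread from the control level to that of TL3d, and TL14d replicate 2, the highest, also had the highest neutrophil and macrophage marker sums of its group. HK3 rose by 3.90 ± 1.01 at 3 hours (q = 0.0104) and by 4.25 ± 1.03 at 3 days (q = 0.0240). HK1, the housekeeping isoform, ranged from 163 to 244 CPM over the 12 libraries and was called in no comparison, with a difference of 0.13 ± 0.17 at 3 hours that changed sign with scaling by library size only (-0.37).

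**Figure D2:**
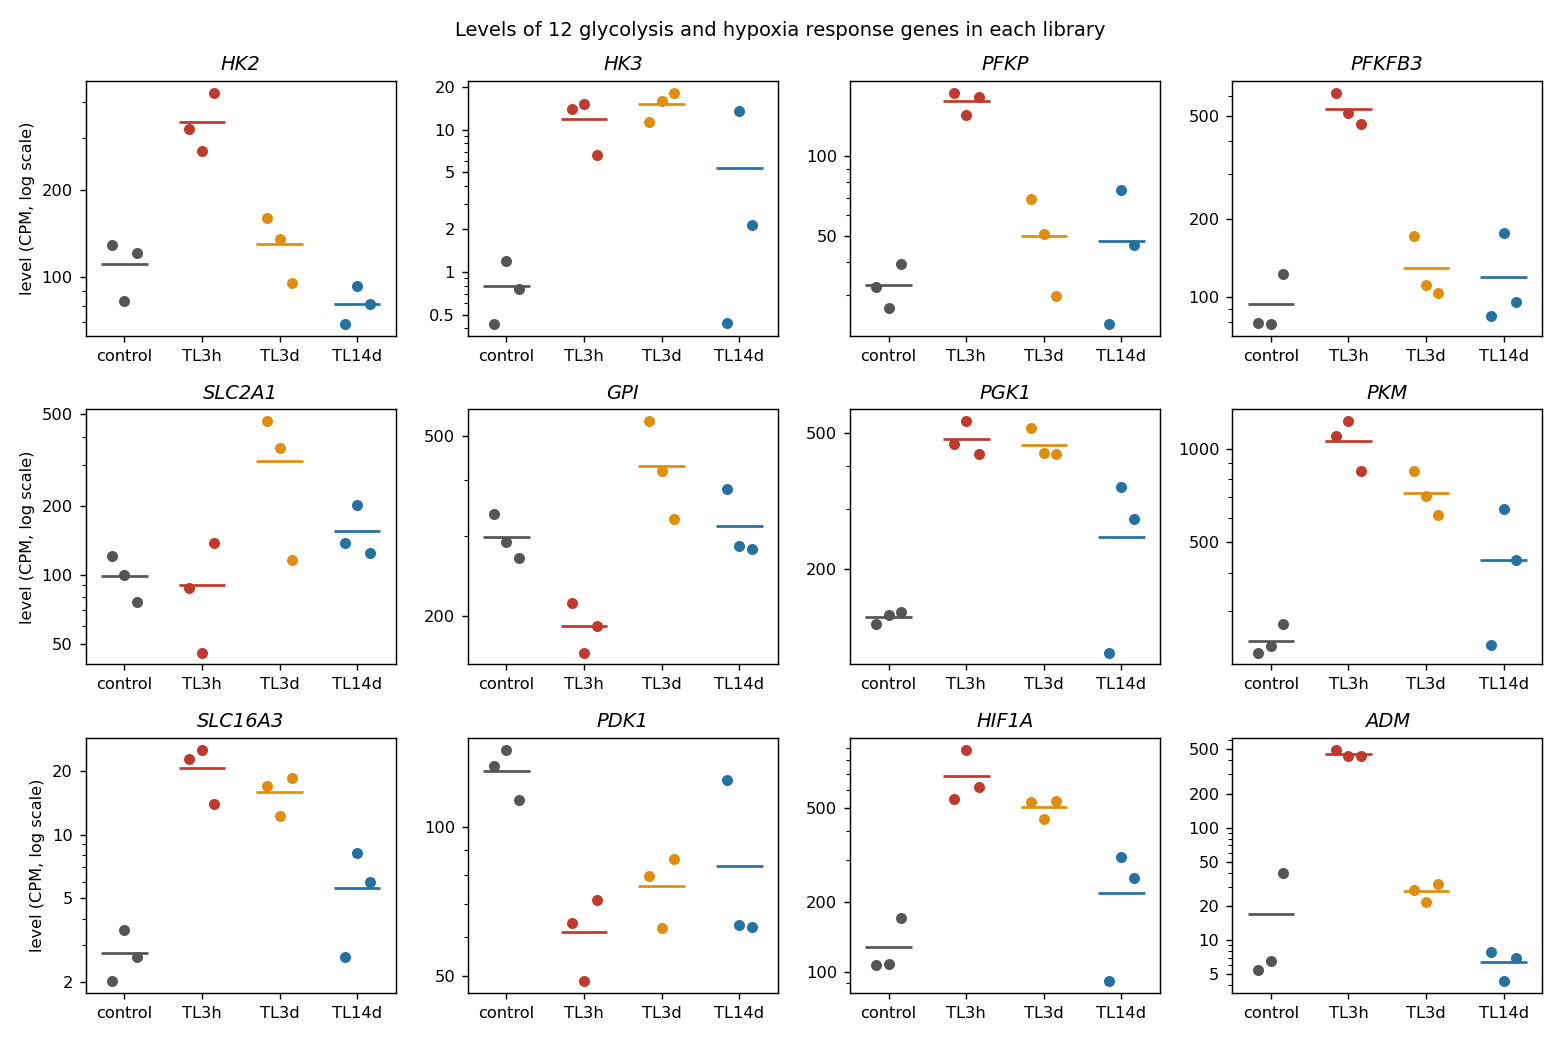
Levels (CPM, log scale on the vertical axis) of 12 genes in each of the 12 libraries by group on the horizontal axis. Points are libraries in the order of their replicate numbers and lines are group means of 3. ADM, HK2, PFKP, and PFKFB3 are high in TL3h only, PGK1, PKM, SLC16A3, and HIF1A are high in TL3h and TL3d, and 1 TL14d library (replicate 1) lies at or near control levels for HK3, PGK1, PKM, SLC16A3, PDK1, and HIF1A.

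In upper glycolysis, PFKFB3 and PFKP had the largest changes at 3 hours. PFKP encodes the platelet-type phosphofructokinase, an enzyme of this step. Its level was 32.3, 26.8, and 39.5 CPM in controls, 174, 144, and 167 CPM in TL3h, 69.3, 51.3, and 29.9 CPM in TL3d, and 23.3, 74.8, and 46.6 CPM in TL14d. The TL3h libraries lay far above every other library, and PFKP rose by 2.30 ± 0.41 (q = 0.00144). PFKFB3, which makes the allosteric activator fructose 2,6-bisphosphate, measured 80.0, 78.7, and 123 CPM in controls and 616, 515, and 467 CPM in TL3h. It measured 172, 112, and 104 CPM in TL3d and 84.6, 178, and 95.8 CPM in TL14d. TL3h again stood above all other libraries, with a rise of 2.50 ± 0.33 (q = 0.000279). PFKFB4, a relative with both kinase and phosphatase activity, ranged from 19.9 to 39.5 CPM over all libraries and was called in no comparison.

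PFKM, the muscle-type phosphofructokinase, went the other way. It measured 54.0, 69.3, and 52.6 CPM in controls, 38.9, 46.9, and 34.4 CPM in TL3h, 29.0, 34.2, and 44.4 CPM in TL3d, and 60.1, 41.8, and 50.7 CPM in TL14d. Control replicate 2 and TL3d replicate 3, the libraries with muscle markers, held the highest PFKM level of their groups. PFKM fell by 0.55 ± 0.20 at 3 hours (q = 0.0499) and by 0.71 ± 0.20 at 3 days (q = 0.0412). The call at 3 hours was lost without control replicate 1 or 2, TL3h replicate 1 or 3, TL3d replicate 2, or TL14d replicate 3, with q up to 0.179 (without control replicate 2), and also without a filter on low counts (q = 0.0505). The row described as liver-type phosphofructokinase, a short gene model of 851 bases, measured 30.996, 25.8, and 28.4 CPM in controls, 17.4, 17.3, and 13.9 CPM in TL3h, 36.8, 34.6, and 33.4 CPM in TL3d, and 34.7, 26.9, and 27.8 CPM in TL14d. TL3h lay below all other libraries. The row fell at 3 hours by 0.81 ± 0.15 (q = 0.00145).

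GPI, which turns glucose 6-phosphate into fructose 6-phosphate, measured 336, 292, and 268 CPM in controls and 214, 166, and 190 CPM in TL3h. It measured 539, 419, and 328 CPM in TL3d and 381, 286, and 281 CPM in TL14d. GPI fell by 0.65 ± 0.21 at 3 hours (q = 0.0251), and TL3d lay above TL3h in all libraries. The call at 3 hours was lost without control replicate 1 or 2 or TL3h replicate 2 or 3, with q from 0.0503 to 0.0886. ALDOA, the main aldolase of muscle and most tissues, measured 345, 420, and 371 CPM in controls, 759, 895, and 845 CPM in TL3h, 506, 501, and 447 CPM in TL3d, and 412, 405, and 354 CPM in TL14d. Its level in TL3h was above every other library, and it rose by 1.14 ± 0.14 (q = 0.000179). TPI1, which interconverts the triose phosphates, measured 250, 240, and 240 CPM in controls, 334, 331, and 340 CPM in TL3h, 349, 342, and 323 CPM in TL3d, and 280, 249, and 254 CPM in TL14d. Its change was small with little spread, at 0.46 ± 0.10 at 3 hours (q = 0.00491) and 0.47 ± 0.10 at 3 days (q = 0.0180). ALDOC, the brain-type aldolase, measured 1.12, 2.95, and 9.63 CPM in controls, 4.54, 10.5, and 3.62 CPM in TL3h, 5.05, 5.36, and 9.36 CPM in TL3d, and 1.92, 1.33, and 3.03 CPM in TL14d. Each group overlapped the controls. Its lowest q against control was 0.608 at 14 days, where the value of -1.13 ± 0.71 became 0.03 without control replicate 3.

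In lower glycolysis, 5 of the 6 genes rose at 3 hours, when 23.2% of all tested genes did, and 5 of 6 at 3 days, when 10.6% did. The 3-day calls of all but PGAM1 were lost without single libraries, as given above. PKM encodes pyruvate kinase of the muscle type, whose M2 splice form is known from proliferating and activated cells (chr17:304096-317843). It measured 221, 231, and 273 CPM in controls, 1097, 1228, and 847 CPM in TL3h, 850, 706, and 611 CPM in TL3d, and 234, 643, and 437 CPM in TL14d. TL14d replicate 1 lay within the range of the controls, and all other operated libraries lay above it. PKM rose by 2.13 ± 0.33 at 3 hours (q = 0.000620) and by 1.58 ± 0.32 at 3 days (q = 0.0159). PGK1, the first ATP-yielding enzyme, measured 138, 147, and 150 CPM in controls, 464, 540, and 434 CPM in TL3h, 516, 436, and 432 CPM in TL3d, and 114, 348, and 281 CPM in TL14d. It rose by 1.72 ± 0.33 at 3 hours (q = 0.00195) and by 1.67 ± 0.33 at 3 days (q = 0.0143). TL3h and TL3d overlapped for PGK1, and the controls spread little. A second row described as phosphoglycerate kinase 1 (LOC100348124) measured 13.3 to 14.96 CPM in controls, 46.0 to 56.9 CPM in TL3h, and 43.5 to 49.3 CPM in TL3d.

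PGAM1, phosphoglycerate mutase (chr18:45630375-45638825), measured 145, 145, and 156 CPM in controls. It measured 389, 484, and 456 CPM in TL3h, 375, 362, and 306 CPM in TL3d, and 154, 264, and 210 CPM in TL14d. PGAM1 rose by 1.58 ± 0.19 at 3 hours (q = 0.000196) and by 1.22 ± 0.19 at 3 days (q = 0.00971), and no single left-out library removed these calls. GAPDH, which makes 1,3-bisphosphoglycerate and is often used as a reference gene, measured 477, 725, and 773 CPM in controls. It measured 1158, 1875, and 1351 CPM in TL3h, 1774, 1829, and 1482 CPM in TL3d, and 649, 1114, and 861 CPM in TL14d. All TL3h and TL3d libraries lay above all controls. GAPDH rose by 1.15 ± 0.27 at 3 hours (q = 0.00628) and by 1.36 ± 0.27 at 3 days (q = 0.0153). With scaling by library size only, its change at 3 hours was 0.66 (q = 0.0606).

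The enolases make phosphoenolpyruvate, and ENO2 rose at 3 hours and ENO1 at 3 days. ENO1, the ubiquitous isoform, measured 489, 450, and 390 CPM in controls, 445, 639, and 527 CPM in TL3h, 723, 634, and 668 CPM in TL3d, and 701, 611, and 588 CPM in TL14d. The TL3h libraries overlapped the controls, whereas all TL3d and TL14d libraries lay above them. ENO1 rose at 3 days by 0.61 ± 0.16 (q = 0.0339), a call that was lost with library size only (q = 0.0512). Its difference between 3 days and 3 hours did not pass (0.33 ± 0.16, q = 0.140), and at 14 days its value was 0.52 ± 0.16 (q = 0.376). ENO2, the neuronal isoform, measured 1.02, 1.55, and 2.48 CPM in controls, 10.7, 11.7, and 17.05 CPM in TL3h, 1.55, 3.30, and 2.25 CPM in TL3d, and 2.08, 2.58, and 3.71 CPM in TL14d. The 3 TL3h libraries lay above all other libraries, with a rise of 2.96 ± 0.42 (q = 0.000407).

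Of the genes for pyruvate and lactate, the exporter changed most. SLC16A3 encodes MCT4, which exports lactate from strongly glycolytic cells. It measured 2.02, 3.55, and 2.63 CPM in controls, 22.9, 25.4, and 14.0 CPM in TL3h, 17.04, 12.2, and 18.7 CPM in TL3d, and 2.62, 8.18, and 5.96 CPM in TL14d. Every TL3h and TL3d library lay above every control and TL14d library. SLC16A3 rose 7.58-fold at 3 hours (log2 2.92 ± 0.43, q = 0.000465) and 5.84-fold at 3 days (2.55 ± 0.42, q = 0.0102), and no left-out library removed either call. LDHA, the lactate dehydrogenase subunit that favors lactate formation, measured 380, 229, and 499 CPM in controls, 1343, 572, and 690 CPM in TL3h, 1621, 1033, and 776 CPM in TL3d, and 345, 612, and 442 CPM in TL14d. All TL3h and TL3d libraries lay above all controls, and TL3h replicate 1 lay within the range of TL3d. LDHA rose by 1.23 ± 0.42 at 3 hours (q = 0.0347) and by 1.63 ± 0.42 at 3 days (q = 0.0296). The 3-hour call was lost without control replicate 1 (q = 0.0842), control replicate 2 (q = 0.120), TL3h replicate 1 (q = 0.180), or TL3h replicate 3 (q = 0.0514). It was also lost with scaling by library size only (0.75, q = 0.154) and with only the 2 groups compared (q = 0.0547).

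LDHB, the subunit of oxidative tissues, ranged from 282 to 606 CPM in controls, 372 to 472 CPM in TL3h, 473 to 1290 CPM in TL3d, and 402 to 760 CPM in TL14d. It was called in none of the 5 comparisons. PDK1, the kinase that blocks pyruvate dehydrogenase and is a known target of HIF-1, was lower after surgery. It measured 133, 144, and 114 CPM in controls, 64.2, 48.9, and 71.5 CPM in TL3h, 79.8, 62.7, and 86.3 CPM in TL3d, and 125, 63.6, and 62.8 CPM in TL14d. All TL3h and TL3d libraries lay below all controls. PDK1 fell by 1.08 ± 0.27 at 3 hours (q = 0.00877), and at 3 days its value was -0.77 ± 0.27 (q = 0.0718).

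Among the oxygen sensing genes, HIF1A rose and the EGLN genes did not pass the test. HIF1A encodes the oxygen-regulated subunit of HIF-1, whose protein is controlled mainly by its breakdown (chr20:9365898-9389022). It measured 107, 109, and 170 CPM in controls, 549, 890, and 613 CPM in TL3h, 533, 452, and 537 CPM in TL3d, and 91.3, 308, and 252 CPM in TL14d. TL14d replicate 1 was the lowest of all libraries, and the other TL14d libraries lay between controls and TL3d. HIF1A rose by 2.41 ± 0.41 at 3 hours (q = 0.00105) and by 1.98 ± 0.40 at 3 days (q = 0.0157). EGLN3, a prolyl hydroxylase that HIF itself induces, measured 1.97, 3.00, and 18.7 CPM in controls, 52.5, 36.1, and 44.8 CPM in TL3h, 15.5, 16.1, and 25.9 CPM in TL3d, and 3.66, 62.8, and 11.003 CPM in TL14d. All TL3h libraries lay above the controls, but control replicate 3 was far above the other controls. The value at 3 hours was 2.49 ± 1.04 (q = 0.0739), and it became 4.11 with q = 0.0129 without control replicate 3. It also passed without TL14d replicate 1 (2.49, q = 0.0420) or replicate 2 (2.49, q = 0.0300). EGLN1, the main oxygen sensor of the family, ranged from 88.8 to 98.4 CPM in controls, 53.0 to 70.8 CPM in TL3h, 47.4 to 64.9 CPM in TL3d, and 45.3 to 92.7 CPM in TL14d. Its values against control were -0.52 ± 0.24 at 3 hours (q = 0.106) and -0.76 ± 0.24 at 3 days (q = 0.0567). Without TL14d replicate 1 both passed, with q = 0.0245 and q = 0.0115, and without TL14d replicate 2 the value at 3 days passed (q = 0.0316).

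Of the 6 known hypoxia response genes, ADM and NDRG1 rose at 3 hours (33.3%, beside 23.2% of all tested genes) and the other 4 did not pass the test. ADM encodes adrenomedullin, a vasodilator peptide (chr1:152089743-152094934). It measured 5.46, 6.53, and 39.8 CPM in controls, 496, 438, and 432 CPM in TL3h, 28.2, 21.8, and 31.6 CPM in TL3d, and 7.83, 4.32, and 7.03 CPM in TL14d. The TL3h libraries lay far above all others, while control replicate 3 lay above all TL3d libraries. ADM rose 26.4-fold at 3 hours (log2 4.72 ± 0.73, q = 0.000643), the largest change of the 31 genes. DESeq2 gave no adjusted p for it. Without control replicate 3, its rise was 6.19 at 3 hours, and its value at 3 days of 0.66 ± 0.63 (q = 0.480) became 2.17 (q = 0.0148). NDRG1, a stress and differentiation gene, measured 45.3, 49.4, and 96.4 CPM in controls, 169, 201, and 209 CPM in TL3h, 123, 132, and 86.5 CPM in TL3d, and 66.8, 48.1, and 54.5 CPM in TL14d. It rose by 1.60 ± 0.29 at 3 hours (q = 0.00158). At 3 days the value was 0.84 ± 0.29 (q = 0.0669), or 1.25 with q = 0.0199 without control replicate 3.

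CA9, the membrane carbonic anhydrase widely used as a hypoxia marker, was low in all groups and at or below the floor of 3 counts in the TL3h libraries. Its level was 0.237, 0.375, and 0.1003 CPM in controls, 0.0769, 0, and 0 CPM in TL3h, 2.20, 0.524, and 0.569 CPM in TL3d, and 0.168, 1.52, and 1.14 CPM in TL14d. These are 29 counts in the controls, 2 in TL3h, and 125 in TL3d. The pooled TL3h level was 0.109 of control, with an exact 95% interval of 0.0126 to 0.429 that covers counting error only. The comparison at 3 hours had q = 0.0821, and only without TL3h replicate 1 did it pass among the left-out libraries (q = 0.0446). P4HA3, a collagen prolyl hydroxylase subunit, measured 1.90, 2.13, and 6.50 CPM in controls, 3.81, 7.09, and 3.91 CPM in TL3h, 4.77, 21.6, and 72.0 CPM in TL3d, and 4.71, 34.04, and 123 CPM in TL14d. The libraries of TL3d and of TL14d differed widely, with values of 3.22 ± 1.18 at 3 days (q = 0.0812) and 3.95 ± 1.22 at 14 days (q = 0.364). BNIP3, a mitophagy receptor and HIF target, ranged from 31.5 to 71.7 CPM over all libraries. ANKRD37, another HIF target, ranged from 0.346 to 2.36 CPM. Neither was called in any of the 5 comparisons.

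The step from 3 hours to 3 days was tested directly. Of the 31 genes, 3 were higher at 3 days and 6 lower, beside 18.4% of all tested genes higher and 19% lower, or 37.3% called. All TL3d libraries lay above all TL3h libraries for 3 of the 31 genes (26.2% of all tested genes) and below them for 10 (28.5%). The 6 that fell were HK2 (-1.39 ± 0.25, q = 0.00207), PFKP (-1.69 ± 0.40, q = 0.00858), PFKFB3 (-2.04 ± 0.33, q = 0.00101), ALDOA (-0.78 ± 0.14, q = 0.00165), ENO2 (-2.48 ± 0.41, q = 0.00128), and ADM (-4.07 ± 0.71, q = 0.00164). For each of the 6, all TL3d libraries lay below all TL3h libraries. ADM thus dropped 16.7-fold between the times. The 3 that were higher were SLC2A1 (1.80 ± 0.51, q = 0.0197), GPI (1.17 ± 0.21, q = 0.00177), and CA9. CA9 entered the test only through the groups where it was higher, so its call is no support and it is given by its counts, 125 in TL3d and 2 in TL3h. Leaving it out, 2 of 30 genes were higher. The SLC2A1 call was lost without TL3h replicate 1 (q = 0.0544), TL3h replicate 2 (q = 0.0609), TL3d replicate 1 (q = 0.0737), or TL3d replicate 2 (q = 0.0573). With scaling by library size only, the median of all genes moved from -0.05 to 0.43, 80.5% of the called genes were higher in place of 49.2%, and 10 of the 31 genes were called higher and 5 lower, beside 34.2% of all tested genes higher and 8.31% lower. Under that scaling ALDOA (-0.30, q = 0.128) did not pass. Without control replicate 3, NDRG1 also passed (-0.72, q = 0.0151), as did P4HA3 without TL14d replicate 1 (2.73, q = 0.0452) and LDHB without TL3d replicate 3 (1.26, q = 0.0386). PGK1 (-0.05 ± 0.32, q = 0.907), PKM (-0.55 ± 0.31, q = 0.194), SLC16A3 (-0.38 ± 0.40, q = 0.480), and HIF1A (-0.43 ± 0.39, q = 0.408) did not pass between the times, and all of these but PKM changed sign with that scaling.

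From 3 days to 14 days, 0 of the 31 genes were called by edgeR's quasi-likelihood test, beside 0.647% of all tested genes called higher and 1.59% lower, or 2.24%. The median log2 fold change was -0.42 over the 31 genes and 0.03 over all genes, and 14 of the 31 had an unadjusted p under 0.05, beside 3350 of all genes (22.6%). DESeq2 called 7 of the 31 lower, beside 1829 genes called in either direction, of which 45.5% were higher. In 12 of the 31 genes all TL14d libraries lay below all TL3d libraries, against 14.0% of all tested genes, and in none of the 31 did they lie above, against 13.4%. The smallest q were 0.0730 for PGAM1 (-0.73 ± 0.19), 0.0771 for SLC16A3 (-1.52 ± 0.40), and 0.0819 for TPI1 (-0.37 ± 0.10). Without TL14d replicate 2, HK3, PGAM1, and SLC16A3 passed, and without control replicate 3, ADM (-2.08, q = 0.00926) and NDRG1 (-1.01, q = 0.0306) passed.

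Levels of different genes were compared per length by FPKM, the deposited fragments per kilobase of transcript scaled to the depth, within the controls. GAPDH was highest at 536 ± 121 FPKM (mean ± SD, n = 3), followed by LDHB at 352 ± 135 FPKM, ENO1 at 251 ± 36.1 FPKM, LDHA at 202 ± 67.9 FPKM, ALDOA at 198 ± 23.2 FPKM, and TPI1 at 190 ± 9.62 FPKM. From LDHB to TPI1, neighbours in this order differed by less than the larger of their SDs. At the low end were ENO2 at 0.698 ± 0.28 FPKM, HK3 at 0.235 ± 0.12 FPKM, and CA9 at 0.126 ± 0.076 FPKM. FPKM values were not scaled by TMM, so they were not compared between groups gene by gene.

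The balance within gene families was described by the share of each gene in the summed FPKM of its family in the same library, which no scaling between libraries changes. These shares were not tested. The SLC2A3 row held 9.90% ± 11.1 (SD, n = 3) of the sum with SLC2A1 in controls, 79.9% ± 14.2 in TL3h, 27.2% ± 10.1 in TL3d, and 12.8% ± 11.4 in TL14d. All TL3h libraries (65.5 to 93.8%) lay above all others. PFKP held 35.9% ± 7.56 of the sum with PFKM in controls, 79.9% ± 4.07 in TL3h, 56.7% ± 15.4 in TL3d, and 46.5% ± 18.1 in TL14d, so that the pair went from mostly PFKM to mostly PFKP at 3 hours. The liver-type row was left out of this share because its gene model is short. HK2 held 32.95% ± 5.14 of the 3 hexokinases in controls and 56.3% ± 11.1 in TL3h, and then 34.4% ± 3.41 in TL3d and 27.4% ± 2.96 in TL14d. HK3 held 0.339% ± 0.19 in controls, 2.76% ± 1.15 in TL3h, 5.80% ± 2.23 in TL3d, and 2.33% ± 2.95 in TL14d, so HK1 and HK2 gave nearly all of the sum in every group. PFKFB4 held 31.6% ± 6.27 of its pair with PFKFB3 in controls and 6.80% ± 0.76 in TL3h. LDHA held 37.7% ± 16.8 of the sum with LDHB in controls, 58.9% ± 7.80 in TL3h, 51.7% ± 3.36 in TL3d, and 40.8% ± 14.1 in TL14d, and control replicate 3 (56.7%) lay within the TL3h range. ENO2 was a minor part of the enolases, at 0.292% ± 0.16 in controls and 1.80% ± 0.50 in TL3h.

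**Figure D3:**
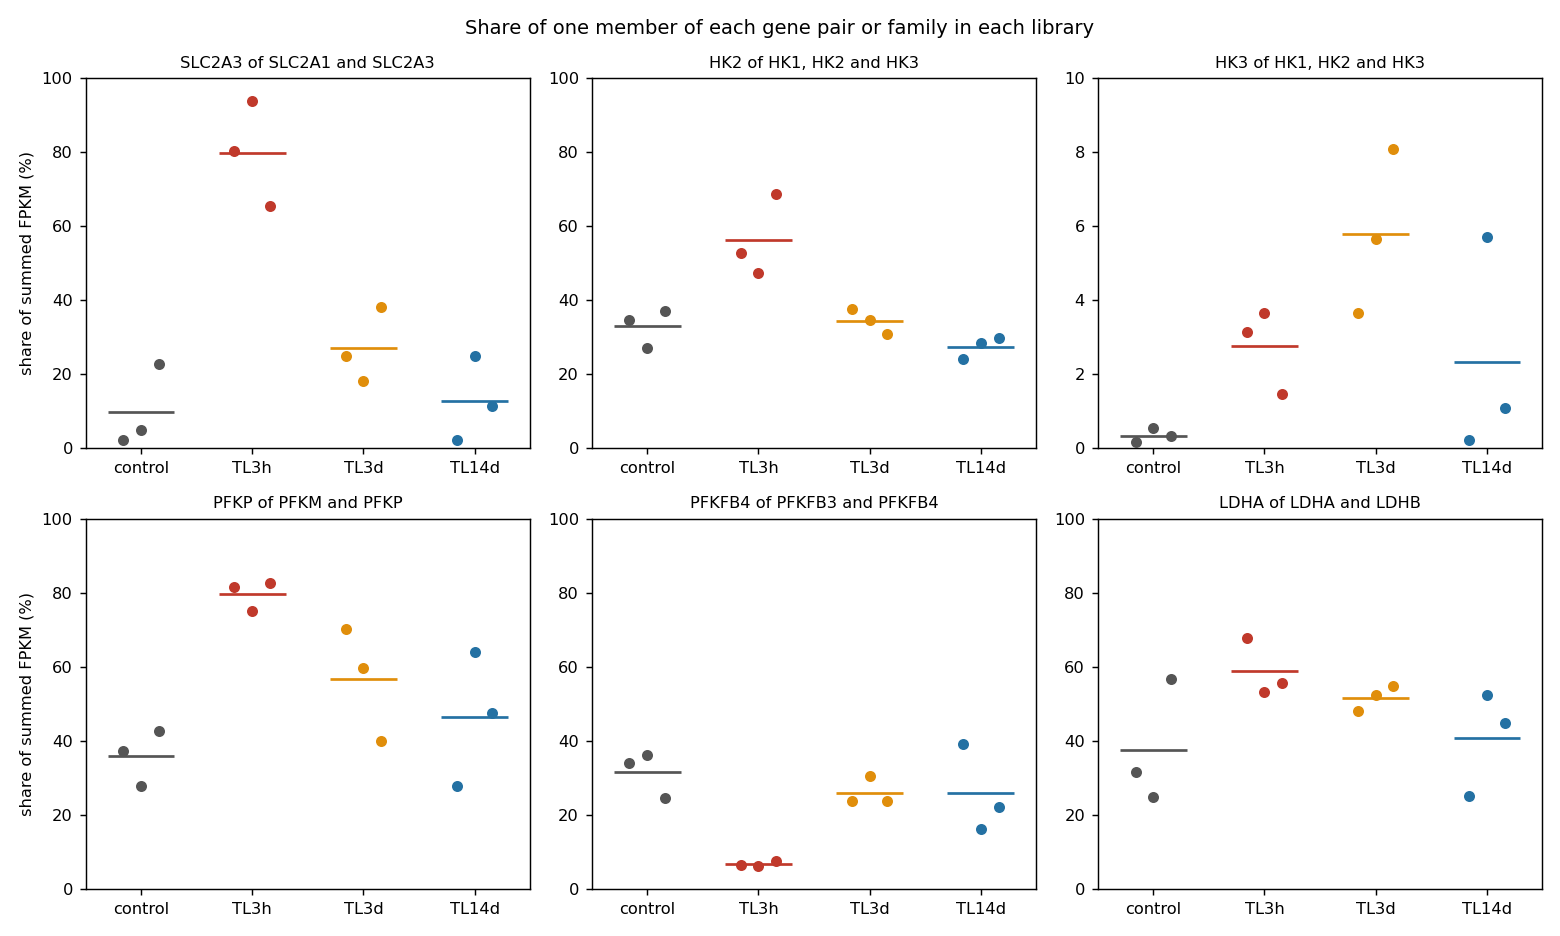
Share (percent of summed FPKM, vertical axis) of 1 gene in its pair or family in each library, by group on the horizontal axis. Points are libraries, lines are means of 3, and the HK3 panel has its own scale up to 10%. The SLC2A3 row and PFKP reach a mean of 79.9% at 3 hours, and PFKFB4 has a mean of 6.80%.

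The summed counts of 17 enzyme genes from the hexokinases to the lactate dehydrogenases took 0.417% ± 0.021 (SD, n = 3) of all counts in controls, 0.575% ± 0.032 in TL3h, 0.818% ± 0.17 in TL3d, and 0.514% ± 0.060 in TL14d. This share uses no scaling by TMM. The groups did not overlap with the controls at any of the 3 times, and with 3 libraries against 3 an exact permutation test cannot give a two-sided p below 0.1. The share measured 0.581, 0.603, and 0.541% in TL3h. In TL3d it was 0.989, 0.815, and 0.648%, and within TL3d it was lowest in replicate 3, which carried muscle markers. The same replicate had the lowest sum of epithelial markers in TL3d (27498, 24067, and 10357 CPM by replicate). It also had the highest sum of fibroblast markers (1352, 11733, and 64789 CPM). The part of these differences in the share was not tested. The order of the first 2 times depended on the scaling. Over the TMM-scaled library size, an alternative chosen after seeing the data, the share was 0.747, 0.785, and 0.691% in TL3h and 0.904, 0.741, and 0.621% in TL3d, which overlapped, with 0.377 to 0.382% in controls and 0.438 to 0.536% in TL14d.

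**Figure D4:**
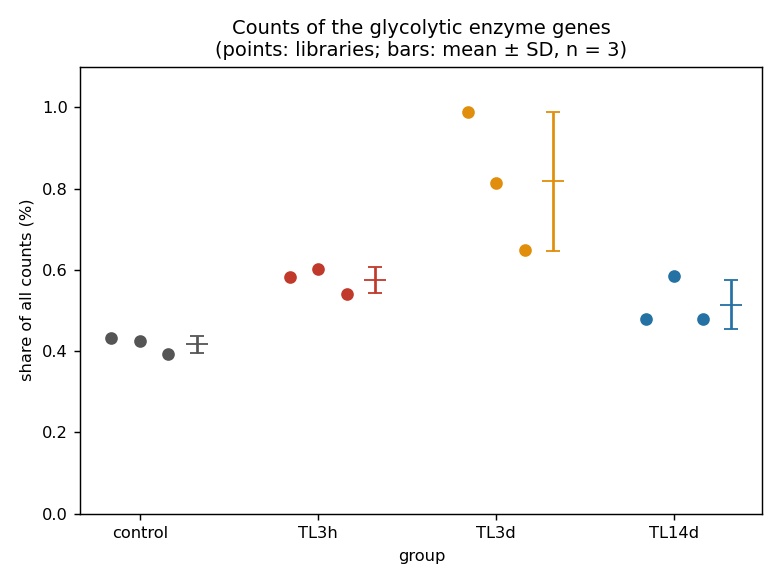
Share of all counts (percent, vertical axis) taken by 17 glycolytic enzyme genes in each library by group. Points are libraries, and bars are mean ± SD of 3. The controls lie between 0.393 and 0.432%, below all other libraries, and the TL3d libraries lie between 0.648 and 0.989%, above the TL3h libraries on this scale but overlapping them over the TMM-scaled library size.

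The other genes of the same pathways were counted from lists of their own. Their calls were not followed through the fits with single libraries left out. Which of their calls at 3 days depended on 1 library is therefore not known. Of 19 tested glycolysis genes outside the 31, 3 rose and 4 fell at 3 hours (15.8 and 21.1%), and 2 rose and 2 fell at 3 days (10.5% each). Among all tested genes 23.2% rose and 22.2% fell at 3 hours, and 10.6% rose and 7.0% fell at 3 days, which is the background for each of the lists below. SLC16A1, the monocarboxylate transporter MCT1, rose at 3 hours from 25.4 ± 29.2 to 293 ± 94.1 CPM (mean ± SD, n = 3 each, q = 0.00348). The controls measured 7.24, 9.86, and 59.1 CPM, so control replicate 3 gave most of their mean. TIGAR, a phosphatase that opposes PFKFB3, rose from 6.63 ± 1.09 CPM to 50.4 ± 7.50 CPM at 3 hours (q = 0.00725) and 90.4 ± 26.7 CPM at 3 days (q = 0.0142). LDHD, the mitochondrial D-lactate dehydrogenase, fell from 26.9 ± 8.53 to 3.41 ± 0.37 CPM at 3 hours (q = 5.78e-05). It then rose to 36.3 ± 7.54 CPM at 3 days against 3 hours (q = 3.56e-05). At 3 days the insulin-responsive transporter SLC2A4 and the glycerol phosphate dehydrogenase GPD1 fell, to 0.556 ± 0.18 and 1.08 ± 0.074 CPM from 2.62 ± 0.69 and 4.94 ± 2.10 CPM.

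Of 13 genes that govern the entry of pyruvate into mitochondria, 4 rose and 4 fell at 3 hours (30.8% each, beside 23.2 and 22.2% of all tested genes), and 1 fell at 3 days (7.69%, beside 7.0%). PDK2, another kinase of the same family as PDK1, fell at 3 hours by 1.73 ± 0.38 (q = 0.00453). PDP2, the phosphatase that reverses these kinases, rose by 1.14 ± 0.25 (q = 0.00442), and PDHA1, a subunit of pyruvate dehydrogenase, rose by 0.92 ± 0.15 (q = 0.000955). PDP1, the other phosphatase, fell at 3 days by 0.84 ± 0.25 (q = 0.0423). Of 5 tested gluconeogenesis genes, PC, which makes oxaloacetate from pyruvate, fell by 2.01 ± 0.39 at 3 hours (q = 0.00215) and FBP1 by 1.67 ± 0.57 (q = 0.0337). PCK2, the mitochondrial form of phosphoenolpyruvate carboxykinase, rose at 3 days by 1.09 ± 0.21 (q = 0.0147).

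Of 12 further HIF subunits and oxygen sensors, 3 rose and 1 fell at 3 hours, and 2 fell at 3 days. SIAH2 (0.90 ± 0.33, q = 0.0473), a ubiquitin ligase for EGLN proteins, and CITED2 (0.83 ± 0.26, q = 0.0242), an inhibitor of HIF-1, were among those that rose, and the coactivator CREBBP fell by 0.49 ± 0.11 (q = 0.00448). EPAS1, which encodes HIF-2α, fell at 3 days from 501 ± 244 to 172 ± 83.3 CPM (q = 0.0448). The groups overlapped, with 265 CPM in TL3d replicate 3 and 235 CPM in control replicate 2. The row for HIF3A fell as well, from 4.68 ± 6.18 CPM, which control replicate 3 dominated, to 0.141 ± 0.22 CPM (q = 0.0467). Its TL3d libraries measured 0.0250, 0, and 0.398 CPM, so 2 of them lay below the floor of 3 counts. Of 39 other hypoxia response genes, 10 rose and 8 fell at 3 hours (25.6 and 20.5%), and 9 rose and 1 fell at 3 days (23.1 and 2.56%). HMOX1, heme oxygenase 1, rose 44.3-fold at 3 hours (q = 0.000123), and STC1, stanniocalcin 1, 7.97-fold (q = 0.00400). At 3 days the creatine transporter SLC6A8 rose 3.43-fold (q = 0.0306), and RAB20 is among the 9, although it passed the filter on low counts only through TL3d, at 0.541 CPM against 0.106 in controls, so its call is no support. From 3 days to 14 days 1 gene of these 39 passed, HMOX1, which fell from 147 ± 76.3 to 26.3 ± 2.55 CPM (q = 0.0472). At 14 days against control, 0 genes of these 5 lists passed. From 3 hours to 3 days, when 18.4% of all tested genes were higher and 19% lower, the lists gave 5 higher and 4 lower of 19, 3 and 4 of 13, 2 and 0 of 5, 0 and 2 of 12, and 11 and 6 of 39, in the order above.

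Some of these genes share sequence with other rows. The deposited counts need not be whole numbers, and 23.4% of all values in the table were fractions. For GAPDH, PGAM1, PKM, LDHA, and SLC16A3 the values of all 12 libraries were fractions, so that reads may have been divided with other rows, and these levels are uncertain to that extent. A row without introns described as L-lactate dehydrogenase A chain-like (LOC100351519) measured 22.5, 36.8, and 28.6 CPM in controls, 2.38, 33.4, and 40.9 CPM in TL3h, 116, 2.16, and 128 CPM in TL3d, and 19.4, 1.09, and 70.8 CPM in TL14d. Single libraries within TL3h, TL3d, and TL14d lay far below the others of their group, and the row was called in no comparison. With the counts of this and a second such row added to LDHA, an alternative chosen after the data were seen, LDHA rose by 1.16 at 3 hours (q = 0.0314) and by 1.62 at 3 days (q = 0.0238).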

How the data were processed

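RNA of 12 conjunctiva libraries was analysed, with 3 each of control, TL3h, TL3d, and TL14d, as the sample labels group them. The authors made stranded mRNA libraries and mapped 150 bp paired-end reads to OryCun2.0 with STAR (2.6.0c in the submitters' processing notes). The values per gene come from GeneData Profiler Genome, per the file headers as estimated counts (expected counts), which the authors deposited unnormalized, and as FPKM, which the authors deposited after division by length and depth. How reads with several placements were counted is not given in the sources used here. FPKM served only for shares and levels within a library.

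The estimated counts were rounded. The filter filterByExpr (minimum count 10, minimum total 15) kept 14835 of 20566 genes. All 12 libraries entered 1 quasi-likelihood fit with TMM scaling and a prior count of 0.125 in edgeR 4.0.16 under R 4.3.3, and p-values were adjusted by Benjamini-Hochberg over all tested genes with a threshold of 0.05. Standard errors came from the log2 fold change and its F statistic. The design had been written for counts, and its test was kept for the rounded estimates. The fit was tested on simulated data for TL3h against control over 14835 genes. It recovered 11 of 50 genes changed 2-fold, 34 of 50 changed 4-fold, 45 of 50 changed 8-fold, and 46 of 50 changed 16-fold, with 10 false calls. Only these genes were changed in the simulation, and genes of the lowest levels were not among them. In the data 45.4% of all tested genes were called in this comparison, which alters the adjustment of p. The recovered counts therefore do not give the power of the test on these data.

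A library's floor of 3 counts lay at 0.0712 to 0.124 CPM and covers counting error only. The replicate numbers were checked for pairing. Of 18 correlations between same-numbered libraries of different groups, 8 were over 0.1 (range -0.15 to 0.52), and 9 of 12 libraries correlated best with their own number. These values do not exclude a link between same-numbered libraries. The labels name no such link, so the numbers were not taken to pair samples and entered only as a block in an alternative. The alternatives were DESeq2 1.42.0, its size factors, library size only, other filters, fits of 2 groups, a replicate block, and leaving out each library.

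The list of genes, the pathway lists, and the markers were chosen with earlier results of these data known. All 33 genes were named, with values per library where a gene was called or changed at least 2-fold against control, and up to 3 called genes per further list and comparison. Rows for SLC2A3, PFKL, HIF3A, and some markers were matched by their description. Positions are those of the authors' table, and genes on unplaced sequence are given without one. A planned search for HIF motifs in promoters was not run, and no sequence is shown. Transcript tables and libraries of other operations were not used here. The values of 1 gene of these lists are not reported here.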

Additional observations from a re-analysis of the deposited data

Results flagged for a closer look

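For 9 of the 31 genes the change against control differed between 3 days and 3 hours in the direct test of TL3d against TL3h, which equals the difference of the log2 fold changes. Of all tested genes, 37.3% were called in that test. The fitted difference was 5.23 for CA9, which depends on the prior count because the TL3h libraries held 2 counts in all, and which supports nothing because CA9 passed the filter only through its higher groups. It was 1.80 for SLC2A1 (q = 0.0197) and 1.17 for GPI (q = 0.00177). It was -4.07 for ADM (q = 0.00164), -2.48 for ENO2 (q = 0.00128), -2.04 for PFKFB3 (q = 0.00101), -1.69 for PFKP (q = 0.00858), -1.39 for HK2 (q = 0.00207), and -0.78 for ALDOA (q = 0.00165). All 3 libraries of each group stood on the same side of the other group for 7 of the other 8 genes, and SLC2A1 was the exception.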

How the results depend on the processing

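The numbers of the 31 genes called moved with the scaling, the test, and single libraries. With library size only, 7 genes were lower at 3 hours against control (3 with TMM), TPI1 reversed at 3 hours to -0.042, and 10 genes were higher in TL3d against TL3h (3 with TMM), where 34.2% of all tested genes were higher. Under this scaling 4 of the 31 genes changed sign at 3 hours, 1 at 3 days, and 7 in TL3d against TL3h. The DESeq2 test called 4439 genes in all (53.7% of them higher) and 3 of the 31 lower at 3 days. At 14 days it called 371 in all (79.2% higher) and 1 of the 31 higher. In TL3d against TL3h it called 5 of the 31 higher, where 51.4% of all called genes were higher. In TL14d against TL3d it called 1829 in all (45.5% higher) and 7 of the 31 lower. With only the 2 groups compared, 3 of the 31 were lower at 3 days, where 56.0% of all called genes were higher. That fit called 15 genes in all in TL14d against TL3d, none of them higher. These percentages are of the genes called, not of all genes tested. When replicate numbers entered as a block, 17 of the 31 were called at 3 hours and 12 at 3 days, beside 6946 and 2719 of the 14835 tested genes, and 0 of the 31 were lower at 3 days. The block ended the calls of PFKM (q = 0.0747) and LDHA (q = 0.0505) at 3 hours and of SLC2A1 (q = 0.0693) and PFKM (q = 0.0597) at 3 days, and GPI (q = 0.0444) and P4HA3 (q = 0.0488) at 3 days and LDHB in TL3d against TL3h (0.85, q = 0.0291) passed. Of the libraries, 9 of 12 correlated best with their own number.

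With each library left out in turn, the 31 genes gave 1 to 4 lower at 3 hours, 2 to 12 higher and 0 to 3 lower at 3 days, 0 to 7 higher and 0 to 2 lower at 14 days, and 0 to 3 lower in TL14d against TL3d. All genes called, in either direction, ranged from 5280 to 7271 at 3 hours, from 359 to 3778 at 3 days, from 0 to 716 at 14 days, and from 0 to 584 in TL14d against TL3d. At 14 days the log2 fold change ranged from -1.59 to 0.032 for ALDOC, from -0.11 to 3.37 for EGLN3, from -1.86 to 0.081 for ADM, and from -0.070 to 2.88 for the SLC2A3 row, and none of these was called. The causes were not tested. Of 70 log2 fold changes, 43 were called, and under the alternatives these 43 kept direction and call 733 times, lost the call 83 times, and reversed 1 time. Shares by CPM in place of FPKM differed by up to 12.9 percentage points (SLC2A3 in TL3d, 40.0%). In the simulation of TL3h against control, 11 of 50 genes changed 2-fold were recovered, but far fewer genes were changed there than were called in the data.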
